A study of Mus musculus with 8 samples.

Results

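The core circadian clock loop was examined as 10 genes (Arntl, Clock, Npas2, Per1, Per2, Per3, Cry1, Cry2, Ciart and Bhlhe40) among the 21358 genes measured by RNA sequencing in mouse liver. The genes were chosen by name, as the rows of the deposited table that carry these symbols, and all 10 were found. Expression was given as FPKM, a fragment count scaled for gene length and library depth. Of the 2 groups, SG is labelled starvation glucose (4 libraries, numbered 101, 103, 104 and 105) and FG is labelled feeding glucose (4 libraries, numbered 93, 94, 95 and 96). The series text contrasts glucose taken in different metabolic states. Mice of both groups had followed every-other-day fasting for 22 weeks, and the series title calls the mice a model of metabolic dysfunction. How and for how long glucose was given, the time since food, the clock hour at collection, strain, sex and age are not in the labels. Nor is it said that the 4 libraries of a group are separate animals, so the p-values cover only the spread among libraries, which may be technical. A difference between the groups in the hour of collection cannot be told apart from the difference in feeding state.

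The clock of mouse liver runs on a feedback loop of transcription. BMAL1, the product of Arntl, pairs with CLOCK or its relative NPAS2 and binds E-box sequences near the Per and Cry genes, Ciart and Bhlhe40, and the PER and CRY proteins then return to repress that pair. In rodent liver the RNAs of Arntl and of the Per genes peak at nearly opposite times of day, and the time of feeding is a strong cue for this loop in hepatocytes.

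The libraries held 36479956 to 39141440 fragments in SG and 38175359 to 41894909 in FG, as worked out from the steps between FPKM values over the listed genes. SG 101 and FG 95 received the lowest weights of their groups when libraries were weighted by their fit to the model (0.337 for SG 101 and 0.508 for FG 95), and each was the lowest library of its group in the same 21.7% of all tested genes. Hepatocyte markers summed to 49800 to 64600 FPKM in SG and 48100 to 57600 FPKM in FG over 4 of the 5 markers listed. Sinusoidal endothelial markers (4 of 4) summed to 49.3 to 60.5 FPKM in SG and 67.2 to 83.5 FPKM in FG, and neutrophil markers (3 of 3) to 0.698 to 1.37 FPKM in SG and 2.15 to 3.61 FPKM in FG, in both cases without overlap. Kupffer, stellate, cholangiocyte, T cell, B cell and erythroid marker sums overlapped between the groups. In these bulk samples, fewer cells of a type and less RNA per cell cannot be told apart. A gene was tested with limma on log2(FPKM + 1) when it reached 1 FPKM in at least 4 libraries, and called at a Benjamini-Hochberg adjusted p below 0.05 over the 9867 tested genes. Differences are SG minus FG on that scale, which understates changes of weakly expressed genes. Calls numbered 1912 and 80.8% of them were lower in SG. They numbered 834 without FG 93, 1102 without FG 95, 1087 without SG 103, and 1036 without SG 104 and likewise without SG 105. The median difference over all tested genes was -0.14, and median-ratio scaling of the libraries moved it to 0.00586, with 47.8% of 1044 calls lower in SG.

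The promoters of the loop show which of the clock's known binding sequences lie at their starts. RefSeq windows on GRCm38.p6 were available for 8 of the 10 genes, and the 250 bases before the first start in that promoter table were searched on both strands for exact letters only. For Arntl, Clock, Npas2 and Per1 the annotated gene begins upstream of that window, and for Per3, Cry2 and Ciart it begins within it. The 4 windows below are shown because they hold the CACGTG and D-box matches of the repressor arm whose RNA is described after them. The Cry2 window, which holds only a variant E-box, is not printed. Capitals mark CACGTG (E-box), its variant CACGTT or the reverse AACGTG, TTATGTAA (D-box) and AGGTCA or the reverse TGACCT (the core of the ROR and REV-ERB element).
Cry1, chr10:85185055-85185304, minus strand: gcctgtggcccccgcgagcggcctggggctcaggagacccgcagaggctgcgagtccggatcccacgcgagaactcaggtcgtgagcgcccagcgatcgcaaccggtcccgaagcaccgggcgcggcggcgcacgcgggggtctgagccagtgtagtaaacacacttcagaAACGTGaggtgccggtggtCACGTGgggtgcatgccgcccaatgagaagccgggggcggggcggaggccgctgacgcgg
Ciart, chr3:95882229-95882478, minus strand: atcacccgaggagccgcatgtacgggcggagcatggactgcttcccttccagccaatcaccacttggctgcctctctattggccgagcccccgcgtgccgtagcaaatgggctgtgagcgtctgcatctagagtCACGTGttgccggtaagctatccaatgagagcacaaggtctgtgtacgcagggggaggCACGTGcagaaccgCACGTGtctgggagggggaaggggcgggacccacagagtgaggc
Per1, chr11:69098699-69098948, plus strand: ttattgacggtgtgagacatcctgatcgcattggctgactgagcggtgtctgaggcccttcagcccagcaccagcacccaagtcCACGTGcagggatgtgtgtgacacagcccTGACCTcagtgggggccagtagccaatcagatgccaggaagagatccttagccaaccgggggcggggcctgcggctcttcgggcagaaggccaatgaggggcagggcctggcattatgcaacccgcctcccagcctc
Per3, chr4:151044666-151044915, minus strand: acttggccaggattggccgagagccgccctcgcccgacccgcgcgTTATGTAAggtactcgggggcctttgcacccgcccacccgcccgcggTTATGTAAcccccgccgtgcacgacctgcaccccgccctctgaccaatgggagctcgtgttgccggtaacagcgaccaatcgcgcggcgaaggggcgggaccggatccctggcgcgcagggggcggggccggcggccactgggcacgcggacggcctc
Ciart held 3 E-boxes, Cry1 held 1 E-box and 1 variant, Per1 held 1 E-box and 1 ROR element core, and Per3 held 2 D-boxes and no E-box. Cry2 held 1 variant E-box, and the first windows of Arntl, Clock and Npas2 held none of the searched letters, while a window at a later Clock start held TGACCT. Among all 32851 windows of the table, 6.02% held CACGTG, 3.85% CACGTT, 0.931% TTATGTAA or TTACGTAA, and 14% AGGTCA. The cyclic AMP response element, TGACGTCA, was held by 1.55% of these windows and by none of the first windows of the 8 genes searched. None of these motifs overlapped another in the windows shown. A match is a description of letters and not a measured binding site. Per2 and Bhlhe40 had no window.

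**Figure D1:**
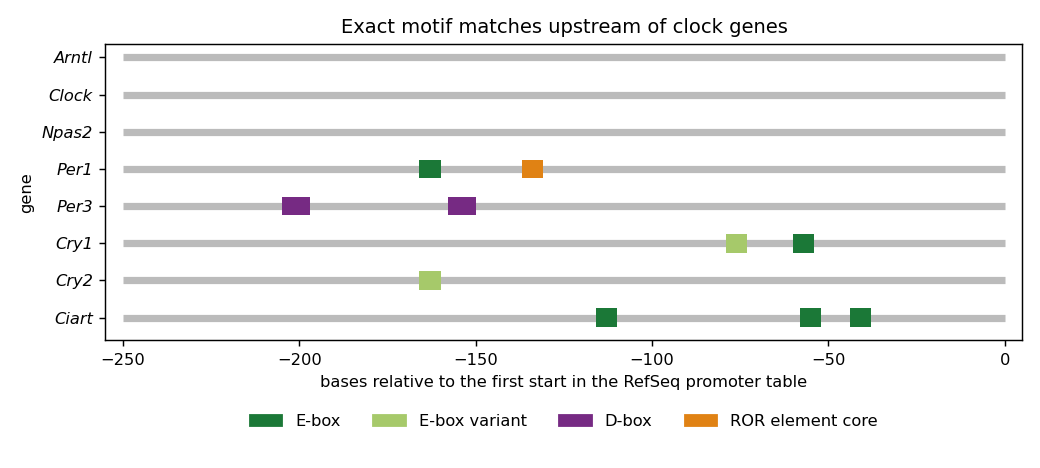
Exact motif matches in the 250 bases before the first start in the RefSeq promoter table for 8 clock genes (horizontal axis, bases relative to that start; rows, genes; coloured blocks, matches on either strand). Ciart carries 3 E-boxes and Per3 carries 2 D-boxes, while Arntl, Clock and Npas2 carry no match in this window.

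Of the 8 members that could be tested, 1 was called by limma, Bhlhe40, which was lower in SG, where 19.4% of all tested genes were called and 15.6% were called lower in SG. Arntl, Npas2, Clock, Cry1 and Cry2 averaged higher in SG, Cry2 only slightly and Npas2 on very few fragments. Of these, Clock, Cry1 and Cry2 were tested and did not pass the threshold. The Per genes and Ciart averaged lower in SG and did not pass either. The median difference of the 8 tested members was -0.0784, beside -0.14 over all tested genes. At an unadjusted limma p below 0.05 there were 3 of the 8, Clock, Cry1 and Bhlhe40, beside 35.6% of all tested genes. The SG and FG libraries did not overlap in 1 of the 8, beside 26.1% of all tested genes. Counted over all 10 members, the SG and FG libraries did not overlap in 2, Arntl and Bhlhe40, and such separation was seen in 14.8% of the genes in the table.

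Of the activator arm, Arntl and Npas2 had the lowest FPKM of the 10 members. Arntl, whose product BMAL1 is the activator without close substitute in this loop, measured 0.115, 0.663, 0.126 and 0.529 FPKM in SG 101, 103, 104 and 105, against 0.0787, 0.0652, 0.0556 and 0.0775 FPKM in FG 93, 94, 95 and 96. All SG libraries lay above all FG libraries, SG 103 and SG 105 by far the most, and SG 101 and SG 104 only just. The values rested on 87 to 467 fragments in SG and 45 to 59 in FG. The means were 0.358 ± 0.28 FPKM in SG and 0.0693 ± 0.0109 FPKM in FG (SD, n = 4 each), a ratio of 5.17. Arntl lay below the filter. The exact two-sided permutation test over the 70 ways to divide 8 libraries gave p = 0.0286, the smallest it allows, for a difference of 0.32 on the log2(FPKM + 1) scale. In the limma fit without a filter Arntl did not pass (SE 0.133, adjusted p = 0.217). The gene (NCBI gene 11865) spans chromosome 7 from 113178471 to 113314126 in GRCm38. Its FPKM values implied a length of 19.3 kb, against 7.52 kb for the union of its GENCODE vM21 exons, so its level relative to other genes depends on the length the authors used.

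Clock, which encodes the partner of BMAL1, was at 1.79, 6.3, 4.14 and 5.55 FPKM in SG 101, 103, 104 and 105 and at 1.79, 2.55, 0.797 and 2.07 FPKM in FG 93, 94, 95 and 96. SG 103, SG 104 and SG 105 exceeded every FG library, while SG 101 lay within the FG range. The difference of 0.91 (95% interval 0.21 to 1.61) did not pass in limma (adjusted p = 0.0683), and it passed without SG 101 (1.2, limma adjusted p = 0.0116). Without FG 95 it was smaller (0.71, limma adjusted p = 0.146). In Clock, SG 101 and FG 95 were the lowest of their groups. The same held for 10 of 15 tested genes of chromatin and cofactor proteins, beside the 21.7% of all tested genes. It also held for Arntl, Npas2, Per2, Nr1d2, Rora and Nfil3, with SG 105 equally low in Npas2. With Clock, that is 7 of the 19 core loop and second loop genes (36.8%), the latter described below. The part of SG 101 and FG 95 in the Clock values was not tested beyond leaving each out. Npas2, which can stand in for CLOCK, was close to absent, at 0, 0.0771, 0.0313 and 0 FPKM in SG 101, 103, 104 and 105 and 0.0368, 0.00602, 0 and 0.0416 FPKM in FG 93, 94, 95 and 96. These values correspond to 0 to 12 fragments in SG and 0 to 7 in FG, which allow no comparison.

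**Figure D2:**
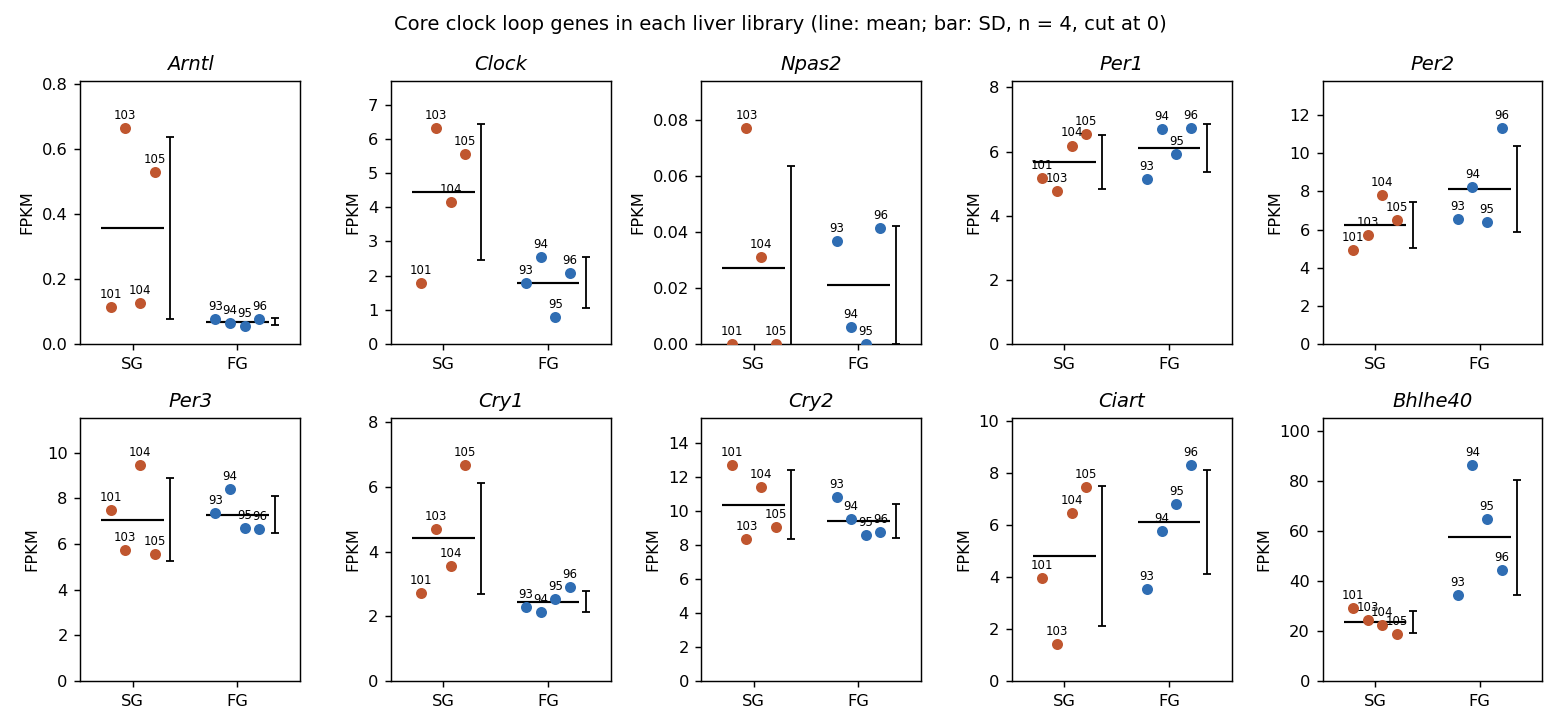
FPKM (vertical axis, from 0) of the 10 core clock loop genes in each library, with SG left of FG; points are libraries labelled by number, horizontal lines are group means and bars are SD (n = 4). The groups separate in Arntl and in Bhlhe40, and SG 103 and SG 105 carry the highest Arntl and Clock values.

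The period genes, whose proteins carry CRY into the repressor complex, did not pass the test, and the groups overlapped in each of them. Per1, which glucocorticoids and cyclic AMP are known to induce acutely, was at 5.19, 4.77, 6.19 and 6.56 FPKM in SG 101, 103, 104 and 105, against 5.15, 6.71, 5.91 and 6.72 FPKM in FG 93, 94, 95 and 96. The groups covered nearly the same range (difference -0.0953, 95% interval -0.37 to 0.18, limma adjusted p = 0.608). Per2, known in mouse liver to follow both the local clock and systemic cues, was at 4.95, 5.7, 7.8 and 6.49 FPKM in the same SG libraries and 6.56, 8.25, 6.4 and 11.3 FPKM in the FG libraries. FG 96 was the highest and SG 101 the lowest, with overlap between the groups (difference -0.32, 95% interval -0.73 to 0.0917, limma adjusted p = 0.243), and the difference was -0.16 without FG 96. Per3, which is dispensable for core rhythmicity in mice, was at 7.47, 5.73, 9.45 and 5.56 FPKM in SG and 7.36, 8.41, 6.7 and 6.65 FPKM in FG. The SG libraries lay on both sides of the FG range (difference -0.0615, 95% interval -0.41 to 0.29, limma adjusted p = 0.806). The signs of the Per1 and Per3 differences turned positive after median-ratio and trimmed-mean scaling, so neither has a settled direction.

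The 2 cryptochromes are the main repressors of the BMAL1 complex, and neither passed the test. Cry1 was at 2.71, 4.69, 3.56 and 6.67 FPKM in SG 101, 103, 104 and 105, against 2.28, 2.12, 2.52 and 2.9 FPKM in FG 93, 94, 95 and 96. The groups overlapped only in that SG 101 lay below FG 96. The means were 4.4 ± 1.71 FPKM in SG and 2.45 ± 0.337 FPKM in FG (SD, n = 4 each), and the difference of 0.6 (95% interval 0.14 to 1.06) did not pass in limma (adjusted p = 0.0675) or in the exact permutation test (p = 0.0571). Of the 8 fits that left out 1 library, it passed only in that without SG 101 (0.76, limma adjusted p = 0.0195). Without SG 105, the highest library, the Cry1 difference was 0.41 (limma adjusted p = 0.124). Cry2 was at 12.7, 8.36, 11.4 and 9.08 FPKM in SG and 10.8, 9.52, 8.58 and 8.79 FPKM in FG, with overlapping groups (difference 0.12, 95% interval -0.19 to 0.43, limma adjusted p = 0.568). Within SG, Cry1 was higher in SG 103 and SG 105 than in SG 101 and SG 104, and Cry2 was higher in SG 101 and SG 104. A test of Cry1 against Cry2 was not made.

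Of the further repressors, Ciart, also called Chrono, which binds BMAL1 and carries 3 E-boxes in the window printed above, was at 3.95, 1.43, 6.45 and 7.46 FPKM in SG 101, 103, 104 and 105. In FG 93, 94, 95 and 96 it was at 3.55, 5.76, 6.82 and 8.31 FPKM. It had the widest interval of the tested members, and SG 103 was the lowest library (difference -0.39, 95% interval -1.24 to 0.46, limma adjusted p = 0.491). Without SG 103 the Ciart difference was -0.0201 (limma adjusted p = 0.968). Bhlhe40, which encodes DEC1, an E-box binding repressor, fell in SG. It measured 29.3, 24.2, 22.2 and 18.7 FPKM in SG 101, 103, 104 and 105, against 34.4, 86.3, 64.6 and 44.5 FPKM in FG 93, 94, 95 and 96. Every SG library lay below every FG library, with a narrow SG group and a wide FG group. The means were 23.6 ± 4.4 FPKM in SG and 57.4 ± 23 FPKM in FG (SD, n = 4 each), a difference of -1.18 (SE 0.261, limma adjusted p = 0.0173, exact permutation p = 0.0286). The call was kept in all 8 fits that left out 1 library (highest limma adjusted p = 0.048) and after median-ratio scaling (0.0419), and was lost when all genes entered the fit without a filter (0.0549). Bhlhe40 (NCBI gene 20893) lies on chromosome 6 from 108660629 to 108666925. The sinusoidal endothelial and neutrophil marker sums were also lower in SG without overlap, and their part in the Bhlhe40 result was not tested.

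**Figure D3:**
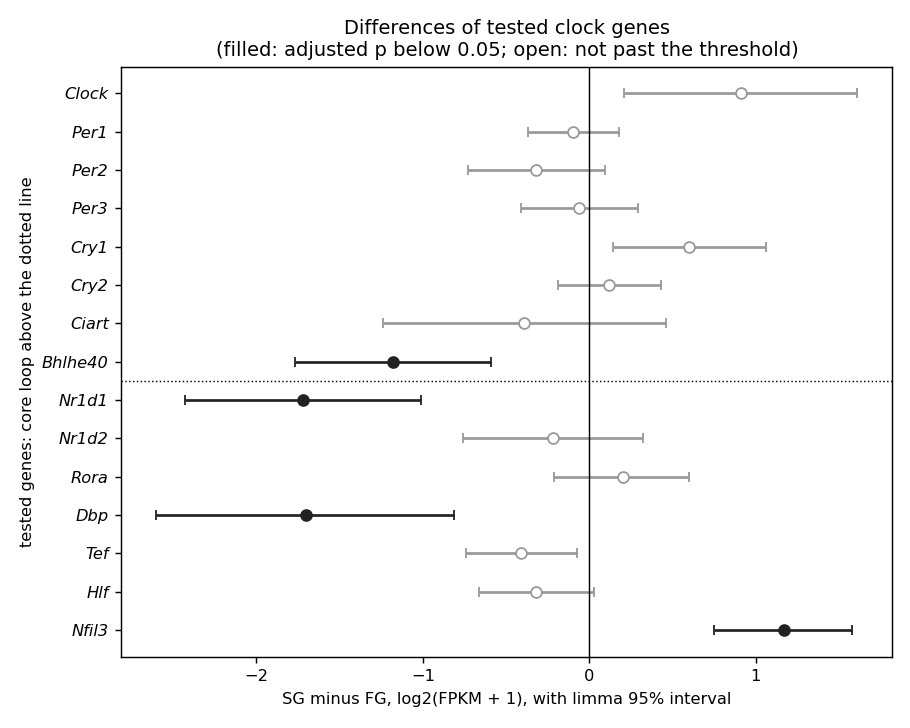
Difference of SG minus FG in log2(FPKM + 1) (horizontal axis) with limma's 95% interval for the tested genes of the core loop (above the dotted line) and 7 tested genes of the second loop and D-box list (below it); filled points passed an adjusted p of 0.05. Bhlhe40, Nr1d1 and Dbp lie to the left of 0 and Nfil3 to the right, and the intervals of Per1, Per2, Per3, Cry2 and Ciart include 0.

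FPKM orders levels only as far as the authors' gene lengths hold, and the lengths implied by the values were 0.656 to 2.57 times the GENCODE vM21 exon unions. Ordered by mean FPKM, Bhlhe40 was the most abundant member in both groups and stood clear of Cry2, the next, with no shared values. From Cry2 down to Ciart, the range of each neighbour in the order overlapped that of the next, in SG and in FG. Compared within each library, Cry2 was above Per3 in all 4 SG libraries and above Per2 in 3 of the 4 FG libraries. The order of Per2 and Per3 by mean differed between the groups. In FG, Ciart (6.11 ± 2 FPKM) was above Cry1 (2.45 ± 0.337 FPKM) and Clock (1.8 ± 0.74 FPKM) with no overlap between Ciart and Cry1. In SG, Ciart (4.82 ± 2.7 FPKM), Clock (4.45 ± 1.99 FPKM) and Cry1 (4.4 ± 1.71 FPKM) overlapped. Arntl and Npas2 were lowest in both groups, each apart from its neighbours (SD, n = 4 throughout).

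The second loop, in which REV-ERB and ROR receptors control Arntl, was examined together with the D-box factors driven by the core loop. Of the 9 such genes found, limma tested 8, of which 2 rose and 2 fell, beside 3.73% called higher and 15.6% called lower over all tested genes. Nr1d1, which encodes the repressor REV-ERB alpha, fell to 6.22 ± 3.46 FPKM in SG, against 20.7 ± 2.79 FPKM in FG (difference -1.72, limma adjusted p = 0.0092). Dbp, a D-box activator and direct target of BMAL1 with CLOCK, fell to 17.6 ± 11.9 FPKM in SG, against 51 ± 7.44 FPKM in FG (difference -1.7, limma adjusted p = 0.0204), a call lost without FG 93 (0.0586) or SG 105 (0.0527) and without a filter on low values (0.0671). Nfil3, the D-box repressor, rose to 5.33 ± 1.38 FPKM in SG, against 1.8 ± 0.536 FPKM in FG (difference 1.17, limma adjusted p = 0.00597). Nr1d2, the paralog of Nr1d1, was at 15.3 ± 3.7 FPKM in SG and 18.4 ± 6.03 FPKM in FG (limma adjusted p = 0.552). Bhlhe41, which encodes DEC2, the paralog of DEC1, was below the filter at 0.125 ± 0.0699 FPKM in SG and 0.441 ± 0.202 FPKM in FG. Its groups did not overlap either, as in 14.8% of the genes in the table. In the limma fit without a filter it did not pass (adjusted p = 0.0884).

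The SG libraries were not alike in the clock genes. SG 103 and SG 105 both lay above SG 101 and SG 104 in Arntl, Clock and Cry1 of the core loop and in Rora and Nfil3. They both lay below in Per3, Cry2, Nr1d1, Dbp, Tef, Hlf and Bhlhe41. That is 12 of the 19 core and second loop genes (63.2%), and 31.9% of all tested genes showed the same split. By list, it was 5 of the 10 core loop genes (50%) and 7 of the 9 second loop and D-box genes (77.8%). Dbp, for example, was at 32.9 and 21.1 FPKM in SG 101 and SG 104 and at 7.7 and 8.58 FPKM in SG 103 and SG 105. Nr1d1 was at 8.25 and 10 FPKM in the first pair and at 3.88 and 2.75 FPKM in the second. Of the other 2 ways to split the SG libraries into pairs, 1 was shown by 6 and the other by 1 of the 19 genes. The split was not particular to clock genes. In the chromatin and cofactor list, SG 103 and SG 105 both lay above in Crebbp, Kdm5a, Ncor1, Sirt1, Kmt2a, Ezh2, Sfpq, Ddx5 and Hnrnpu. They both lay below in Wdr5 and Timeless, and the rest of that list was mixed. The split was noticed in the values and is given as a description. For Arntl, Nr1d1 and Dbp, SG 101 and SG 104 lay between the FG libraries and the remaining SG libraries. The sources used here give nothing else that separates these libraries.

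**Figure D4:**
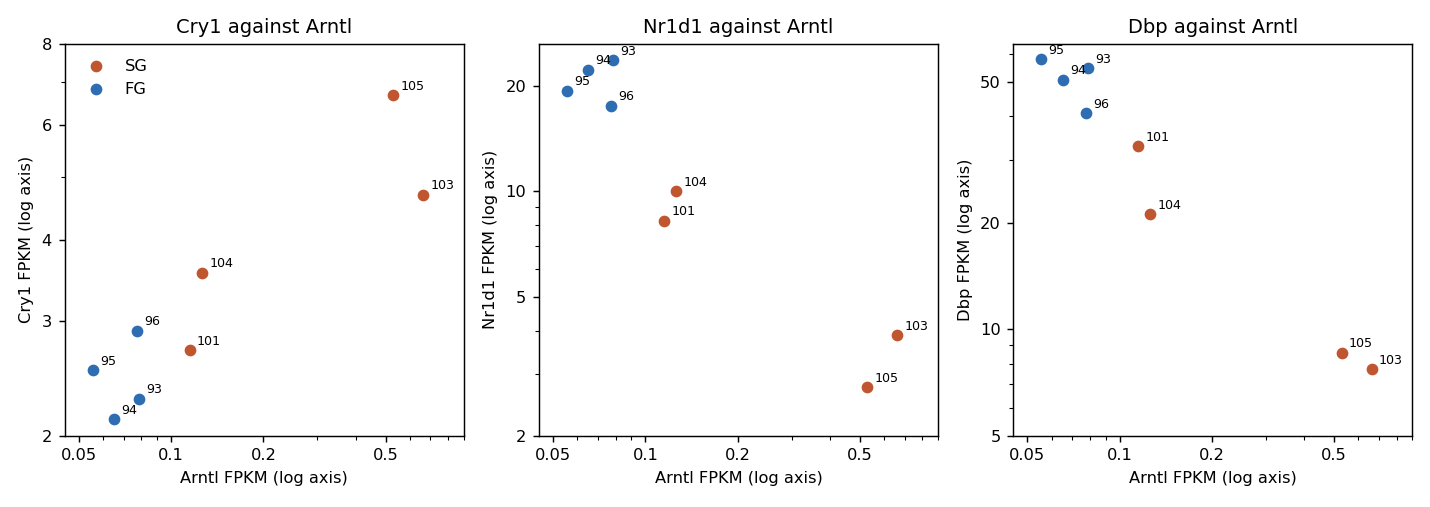
Cry1, Nr1d1 and Dbp (vertical axes, FPKM, log scale) against Arntl (horizontal axes, FPKM, log scale) in the 8 libraries, labelled by number. SG 103 and SG 105 lie at the highest Arntl (0.663 and 0.529 FPKM) with the lowest Nr1d1 and Dbp. In Arntl, Nr1d1 and Dbp, SG 101 and SG 104 lie between them and the 4 FG libraries. In Cry1, SG 101 (2.71 FPKM) lies below FG 96 (2.9 FPKM).

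**Figure D5:**
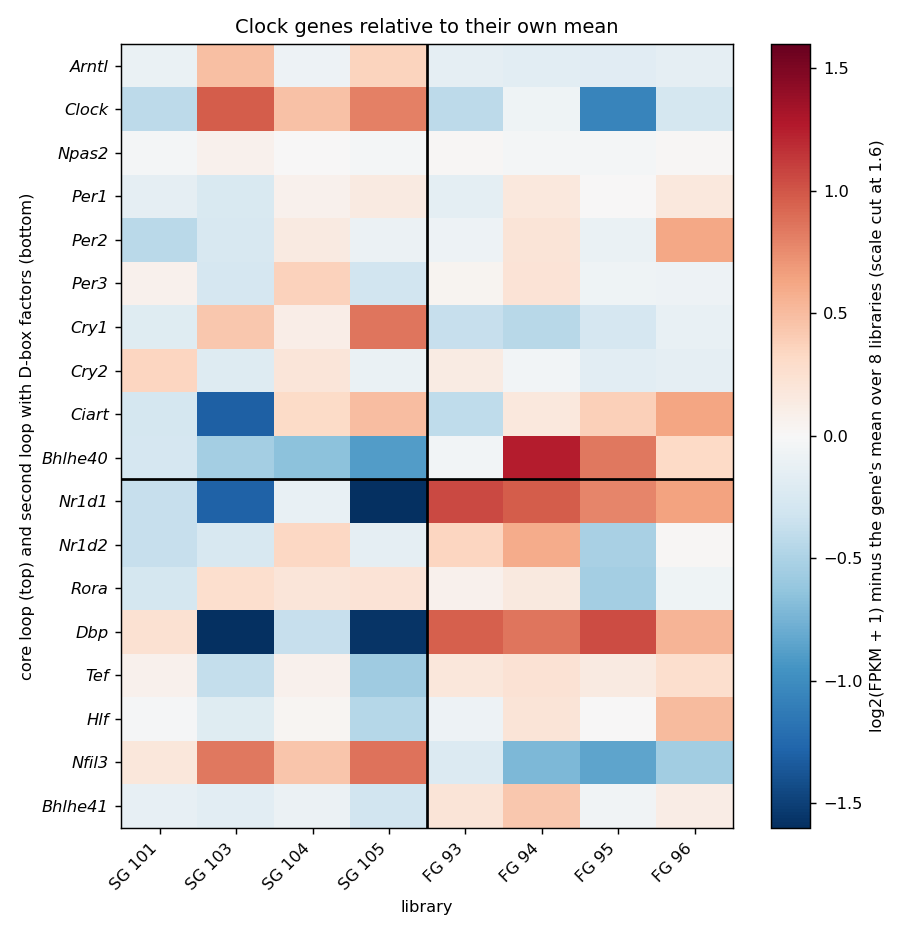
Each gene's log2(FPKM + 1) minus its own mean over the 8 libraries (colour, red above and blue below) for the 10 core loop genes and 8 of the 9 second loop and D-box genes (rows) in SG and FG libraries (columns). Nr1d1 and Dbp are above their mean in all FG libraries, and Nfil3 is above its mean in all SG libraries.

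Among kinases and turnover factors of PER and CRY, limma called 1 of 14 tested genes lower and none higher. Over all tested genes it called 15.6% lower and 3.73% higher. At an unadjusted limma p below 0.05, 2 of the list were lower and 0 higher, beside 35.6% of all tested genes in either direction. With voom on recovered fragments 1 fell and 0 rose. The gene called by limma was Prkaa2, a catalytic subunit of the energy sensor AMPK, which can mark CRY for removal. It fell to 9 ± 1.07 FPKM in SG, against 15.2 ± 3.13 FPKM in FG (difference -0.69, limma adjusted p = 0.0146). Csnk1d, a kinase that sets PER stability, was at 15.8 ± 1.14 FPKM in SG and 16.7 ± 0.346 FPKM in FG (limma adjusted p = 0.504). Csnk1e, its close relative, was at 0.861 ± 0.261 FPKM in SG and 1.04 ± 0.214 FPKM in FG and below the filter. Of 15 tested chromatin and cofactor genes none was called by limma or by voom, where limma called 19.4% of all tested genes. In that list 1 had an unadjusted limma p below 0.05, beside 35.6% of all tested genes.

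Among 12 genes with daily rhythms in liver, 1 rose and 2 fell (limma), 3 calls beside a share of 19.4% over all tested genes. Por, the electron donor of cytochromes P450, rose to 398 ± 72 FPKM in SG, against 211 ± 18.5 FPKM in FG (difference 0.89, limma adjusted p = 0.00557). Gys2, liver glycogen synthase, fell to 89.6 ± 17.8 FPKM in SG, against 144 ± 17.6 FPKM in FG (difference -0.69, limma adjusted p = 0.0154), a call lost after median-ratio scaling (0.0631). Rgs16, a G protein regulator, fell furthest, with a mean of 14.2 ± 12.1 FPKM in SG and 141 ± 58.5 FPKM in FG (difference -3.59, limma adjusted p = 0.0092). It was at 5.03 and 2.55 FPKM in SG 103 and SG 105 and at 22.8 and 26.3 FPKM in SG 101 and SG 104.

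Inputs known to reach the Per genes were set beside them. In the heat shock list, to which Per2 is tied in mouse liver, 1 of 8 tested genes rose and none fell (limma), beside 3.73% called higher and 15.6% called lower over all tested genes. That gene was Hspd1, a mitochondrial chaperone, at 185 ± 15.4 FPKM in SG and 144 ± 11.6 FPKM in FG (limma adjusted p = 0.0298), a call lost in 6 of the 8 fits without 1 library (highest limma adjusted p = 0.0844) and without a filter (0.0522). At an unadjusted limma p below 0.05, 3 of the 8 were lower and 1 higher, beside 35.6% of all tested genes in either direction. Hspa1b, an inducible HSP70, was at 3.15 ± 1.31 FPKM in SG and 8.66 ± 5.24 FPKM in FG and did not pass (limma adjusted p = 0.0727, and 0.0272 without FG 94). Cirbp, a cold-induced RNA binding protein, was at 9.14 ± 2.14 FPKM in SG and 7.35 ± 0.688 FPKM in FG (limma adjusted p = 0.264). In the list of glucocorticoid-responsive genes, a hormone response that Per1 is known to share, 2 of 8 tested genes were called by limma, beside 19.4% of all tested genes. They were the metallothioneins Mt1 and Mt2, both higher in SG. Over all tested genes limma called 3.73% higher and 15.6% lower. At an unadjusted limma p below 0.05, 4 of the 8 were higher in SG and 1 was lower, beside 35.6% of all tested genes in either direction. Of the 9867 tested genes, 652 were higher and 2865 lower in SG at that unadjusted limma p. The median difference of the glucocorticoid-responsive list was 0.71, beside -0.14 over all tested genes. Mt1 averaged 102 ± 113 FPKM in SG and 16.6 ± 11.4 FPKM in FG, and Mt2 111 ± 136 FPKM in SG and 14.3 ± 12.8 FPKM in FG (limma adjusted p = 0.0432 and 0.0482), with SG 105 the highest at 270 and 313 FPKM. Each call was lost in 6 of the 8 fits without 1 library (highest limma adjusted p = 0.113 for Mt1 and 0.125 for Mt2) and with voom. Both were also lost after median-ratio scaling (limma adjusted p = 0.0522 for Mt1 and 0.0603 for Mt2) and without a filter on low values (0.122 for Mt1 and 0.133 for Mt2). Fkbp5, a glucocorticoid receptor cochaperone, was at 21.9 ± 10.6 FPKM in SG and 17 ± 4.58 FPKM in FG (limma adjusted p = 0.601). Tsc22d3, which encodes GILZ, was at 22.1 ± 2.06 FPKM in SG and 29.1 ± 15.2 FPKM in FG (limma adjusted p = 0.77, and 0.0444 without FG 93).

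Likeness to a member was measured as Pearson's r of deviations from the own group mean over the 8 libraries, for 9859 tested genes outside the loop. Closest to Arntl were Crip2 (r = 0.971), Ddc (0.97) and Clpx (0.968). Closest to Per2 were E030018B13Rik (0.97), Ppp2r5e (0.964) and Fam222b (0.956). Closest to Ciart were Rpl31 (0.976), Gm38455 (0.966) and LOC118567839 (0.959). With 8 libraries and this many candidates, values of this size describe the libraries and carry no test. None of the genes closest to these 3 members belongs to the second loop or D-box list.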

How the data were processed

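Per the labels' protocols, liver RNA was TRIzol-extracted, mRNA-enriched and sequenced from both fragment ends on an Illumina machine. The authors deposited FPKM values for 21358 genes in 8 libraries. The submitters' processing notes name the tools HISAT2, HTSeq, fastp and DESeq2 and the builds GRCm38 and mm10. Their versions, the annotation and the strand setting are not given in the sources used here. Reads of a gene and its antisense or overlapping neighbour may therefore be mixed. Every value column carried the label of 1 sample.

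FPKM are not counts, so log2(FPKM + 1) was fitted with limma 3.58.1 in R 4.3.3 (empirical Bayes with a mean-variance trend, 8 libraries, no covariates) for 9867 genes with at least 1 FPKM in at least 4 libraries, with Benjamini-Hochberg adjustment over all of them, two-sided, at 0.05. Single genes were also tested by exact permutation over 70 assignments (smallest p 0.0286). The fit and the recovery of fragments were tested on simulated data. Fragments were worked out from the steps between FPKM values, whole for 100% of genes within 0.002 fragments, or 0.02 where none was found, and served depth and a voom alternative chosen after seeing the data. Recovered depths cover counting error only.

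The 10 members, the gene lists and the rule for named genes were chosen with earlier results of these data known. Named were all members, up to 4 called genes of each list by p, and 12 genes whatever their values; others were named after their values were seen. Listed genes that the text does not name enter only the totals of their lists. Promoter windows came from RefSeq, and positions from RefSeq on GRCm38.p6. Alternatives covered the pseudocount, the filter, scaling, the variance model, library weights and leaving out each library.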

Additional observations from a re-analysis of the deposited data

Results flagged for a closer look

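Of 60 groups of 4 libraries (30 named genes, SG and FG), 1 held a library far from the other 3 on the log2(FPKM + 1) scale. Cirbp, a cold-induced RNA binding protein, was at 6.32 FPKM in FG 93 and between 7.62 and 7.76 FPKM in the other FG libraries, and the gap was 0.909 of the group's range, above Dixon's 95% critical value. Chance alone flags about 1 in 20 such groups. None of the 10 core loop genes had such a library in either group.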

How the results depend on the processing

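The count of called core loop genes was 1 in the fit reported and moved to 0 without a filter on low values (limma, 10 members tested, 4 at an unadjusted p below 0.05) and to 3 with library weights, when Clock (limma adjusted p = 0.014) and Cry1 (0.0318) joined Bhlhe40; without 1 library it ranged between 1 and 3. It was 1 with voom. All called genes numbered 1912, and 1133 without a filter, 1044 with median-ratio and 1042 with trimmed-mean scaling; without 1 library they numbered 834 to 2363. Signs turned for differences near 0: Per1 to 0.0542 and 0.0532 and Csnk1d to 0.0849 and 0.0838 with median-ratio and trimmed-mean scaling, and Per3 to 0.0919 and 0.0909 with these and 0.0325 with library weights. Without 1 library, Per3 ranged between -0.2 and 0.0282 and Tsc22d3 between -0.65 and 0.087. The causes were not tested. Over the 30 named genes, 364 alternative values kept direction and side of the threshold, 36 lost a call, 6 gained one and 11 changed sign. With a mean of at least 5 FPKM required, Clock and Cry1 dropped out. No paired analysis was possible because the groups share no replicate number. Depth limits Npas2, with at most 12 fragments in a library, and Arntl, with 45 to 59 in FG.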
